A study of Rattus norvegicus with 36 samples.

Results

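The genes described here are 9 mitochondrially encoded respiratory chain genes, given by a list of Ensembl gene IDs that applies no threshold on a measured value. All 9 of the 9 IDs were present among the 31546 gene IDs counted in the nucleus accumbens of 9 rats. They are Mt-nd1 (ENSRNOG00000030644), Mt-nd2 (ENSRNOG00000031033), Mt-nd4 (ENSRNOG00000029707), Mt-nd5 (ENSRNOG00000029971), Mt-cyb (ENSRNOG00000031766), Mt-co1 (ENSRNOG00000034234), Mt-co2 (ENSRNOG00000030371), Mt-co3 (ENSRNOG00000030700) and Mt-atp6 (ENSRNOG00000031979). All 9 passed the filter on low counts, which kept 16029 genes. These 9 are not all the genes of the mitochondrial genome, so unlisted ones can be among the other genes below.

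Mitochondria keep a small circular genome of their own, which is transcribed into long precursors that are cut into separate messenger RNAs. The proteins made from these messages are core subunits of the respiratory chain, and the other subunits come from nuclear genes. Complex I takes electrons from NADH, complex III passes them on to cytochrome c, complex IV hands them to oxygen, and ATP synthase uses the resulting proton gradient. In nerve cells this supply of ATP is known for powering the ion pumps and the synapse. Mitochondrial messages carry short polyA tails, so the oligo(dT) selection used for these libraries captures them.

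The rats were Sprague-Dawley animals of 8 weeks in 3 groups of 3. Rats of the Vulnerable and Non Vulnerable groups had 4 injections of cocaine (20 mg/kg, intraperitoneal), each paired with 1 compartment of a place preference box. Saline sessions of 20 min in the other compartment were set 6 h apart from them. Saline rats had 4 injections of physiological serum and changed compartments in the same way. The study set out to compare rats that did and did not express the preference for the drug-paired side, but no sample label ties the word Vulnerable to either outcome. The labelled tissue is the nucleus accumbens, the extraction protocol also names the caudate putamen, and cell type or region markers could not be checked because 0 of the gene IDs could be paired with a symbol.

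Each rat was represented by 4 technical replicate libraries, which were summed, and total counts per rat lay between 41213813 and 64081679. Non Vulnerable rat 1 stood apart in these genes, so its value, or the comparison without it, is given beside the group values. In the other genes, this rat also had the largest share of counts in its 10 most counted genes, 5.99% against 3.32% to 4.95% in the other rats. Whether that share is separate from the members' level was not tested. ENSRNOG00000033299, outside the list, ranked 14 by total counts and followed the members' summed level with r of 0.98 over the 9 rats. Non Vulnerable rat 1 had the fewest gene IDs with a count, 19331 against 19443 to 20105. Its library scaling factor, from the trimmed mean of M values (TMM), was 0.901, against 0.962 to 1.08 in the others. The part of the lower number of gene IDs with a count was not tested.

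Together the 9 genes took a large share of every library, and that share did not follow the groups. The summed share of all counts was 11.3%, 11.4% and 9.79% in Saline rats 1 to 3. It was 10.6%, 12.1% and 9.48% in Vulnerable rats 1 to 3. Non Vulnerable rats 1 to 3 had 16.4%, 10.1% and 10.1%. The groups overlapped in every comparison, and the highest value belonged to Non Vulnerable rat 1. Group means were 10.8% ± 0.908 (SD, n = 3) in Saline, 10.7% ± 1.29 (SD, n = 3) in Vulnerable and 12.2% ± 3.66 (SD, n = 3) in Non Vulnerable rats. Vulnerable rats lay 1.49 percentage points below Non Vulnerable rats with all rats, and 0.622 above them without Non Vulnerable rat 1. Non Vulnerable rats lay 1.36 points above Saline rats with all rats, and without Non Vulnerable rat 1 the difference was -0.754 points. With the 10 most counted other genes left out of the total, these differences with all rats were -1.71 and 1.503 points. In bulk tissue, a change in the number of cells of a type and a change in RNA per cell cannot be told apart.

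**Figure D1:**
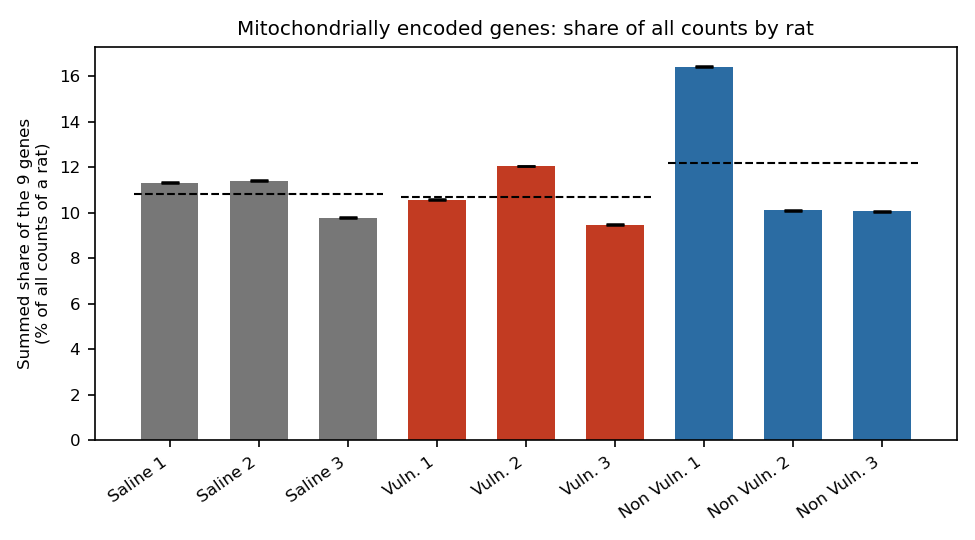
Summed counts of the 9 mitochondrially encoded genes as a percentage of all counts of a rat (y axis, from 0), with 1 bar per rat coloured by group, short ticks at the lowest and highest of its 4 technical replicate libraries, and dashed lines at the group means. Non Vulnerable rat 1 stands at 16.4%, and the other 8 rats lie between 9.48% and 12.1% in all 3 groups.

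The 4 libraries of a rat agreed closely. This agreement does not measure differences between rats in dissection or RNA quality. Among the 4 libraries of a rat, the summed share differed by at most 0.0783 percentage points, in Non Vulnerable rat 1, whose libraries ran from 16.39% to 16.47%. The 95% Wilson interval of that rat's share was 16.41% to 16.43%, which covers counting error only. A chi-square over the 9 genes and all remaining counts gave 1.26 to 3.10 per degree of freedom between libraries of a rat, where counting noise alone gives 1. Between rats of a group it was 5904 or more. The spread between rats was thus far wider than that between libraries of a rat.

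Complex I is represented by Mt-nd1, Mt-nd2, Mt-nd4 and Mt-nd5, all subunits of its membrane arm. Levels are given as CPM, counts scaled to a library size common to all rats with the TMM factors, and are not divided by gene length. Mt-nd2 was measured at 13573, 12534 and 9472 CPM in Saline rats 1 to 3, at 9702, 15155 and 10112 CPM in Vulnerable rats, and at 21851, 9934 and 9857 CPM in Non Vulnerable rats. Non Vulnerable rat 1 was the highest and Vulnerable rat 2 the second highest, and the groups overlapped. For Mt-nd1 the mean level was 9032 ± 1302 CPM in Saline rats, 8582 ± 2066 CPM in Vulnerable rats and 10853 ± 4634 CPM in the Non Vulnerable group (SD, n = 3), whose rats 1 to 3 had 16201, 8336 and 8023 CPM. For Mt-nd5 it was 5361 ± 736 CPM in Saline rats, 5228 ± 1016 CPM in Vulnerable rats and 6345 ± 2604 CPM in the Non Vulnerable group (SD, n = 3), whose rats 1 to 3 had 9337, 5105 and 4594 CPM. Both genes kept the rat order of Mt-nd2 at the top, with Non Vulnerable rat 1 first and Vulnerable rat 2 next.

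The ID listed as Mt-nd4 differed from the other members in its number of counts. It had 119 to 158 CPM in Saline rats, 112 to 168 CPM in Vulnerable rats, and 239, 127 and 124 CPM in Non Vulnerable rats 1 to 3. By total counts it ranked 1398 among all gene IDs, whereas the other 8 members ranked between 1 and 11. Its level was nevertheless a near-constant fraction of that of Mt-nd5, with a ratio of 0.0249 to 0.0271 over the 9 rats. Neither the count tables nor the reference gene table pair this ID with the name, and why it was counted so much less often was not tested. The ID is kept in all counts below, where it contributes at most 0.140% of the members' summed counts in any rat.

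Complex III is represented by Mt-cyb, the cytochrome b subunit that carries out electron transfer from ubiquinol. Its mean level was 12479 ± 1627 CPM in Saline rats, 11828 ± 1996 CPM in Vulnerable rats and 15528 ± 5608 CPM in the Non Vulnerable group (SD, n = 3). The Non Vulnerable mean combined 21988 CPM in rat 1 with values of 11913 to 12682 CPM in the other rats of the group, which lie within the Saline range of 10631 to 13695 CPM.

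Complex IV is represented by its catalytic core, Mt-co1, Mt-co2 and Mt-co3. Mt-co1, the subunit that holds the oxygen-reducing site, was the most counted gene of all 31546. It stood at 28214, 29331 and 26156 CPM in Saline rats 1 to 3, at 27335, 30920 and 24739 CPM in Vulnerable rats, and at 45585, 29311 and 30575 CPM in Non Vulnerable rats. Apart from Non Vulnerable rat 1, its levels in the remaining rats differed by no more than 1.25-fold. Mt-co2, the subunit that receives electrons from cytochrome c, was close to equal in the Saline rats, at 10495 ± 211 CPM, and had 10848 ± 1067 CPM in Vulnerable rats and 12878 ± 3580 CPM in the Non Vulnerable group (SD, n = 3). Non Vulnerable rats 1 to 3 had 16935, 10159 and 11541 CPM of it. Mt-co3, which supports the catalytic pair, had 10411 ± 1385 CPM in Saline rats, 10179 ± 1842 CPM in Vulnerable rats and 12886 ± 4751 CPM in the Non Vulnerable group (SD, n = 3), where rat 1 had 18372 CPM and rats 2 and 3 had 10124 and 10162 CPM.

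ATP synthase is represented by Mt-atp6, a subunit of its proton channel. It stood at 19974, 19666 and 16021 CPM in Saline rats 1 to 3, at 16965, 21772 and 15205 CPM in Vulnerable rats, and at 31773, 17075 and 17724 CPM in Non Vulnerable rats. Again the Non Vulnerable group held the highest rat, while its other rats lay inside the range of both other groups.

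**Figure D2:**
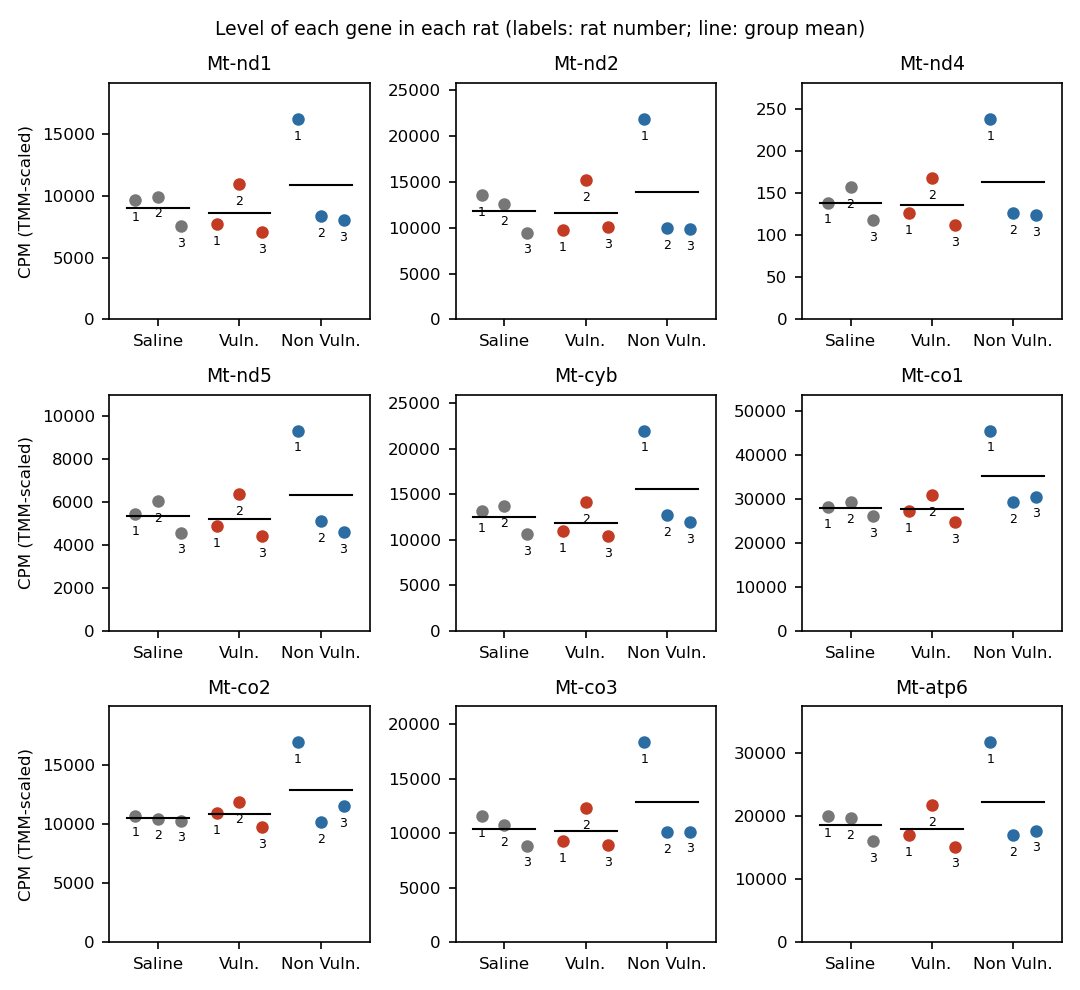
Level of each of the 9 genes (y axis, TMM-scaled CPM, from 0) in each rat, with 1 panel per gene, points labelled by rat number and coloured by group, and a line at the group mean. In all 9 panels Non Vulnerable rat 1 is the highest point and Vulnerable rat 2 the second highest.

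The members had the same highest and second highest rat, while the order of the others varied. Non Vulnerable rat 1 was the highest of the 9 rats for 9 of 9 members, whereas it was the highest for 15.1% of all genes tested. Vulnerable rat 2 came second for 9 of 9 members, and the share over all genes was not computed for second place. The lowest level belonged to Vulnerable rat 3 for 7 members and to Saline rat 3 for 2, Mt-nd2 and Mt-co3. Over all genes tested, these rats were the lowest for 4.40% and 7.02%. Levels in Non Vulnerable rat 1 exceeded the median of the other 8 rats by 1.58-fold (Mt-co1) to 2.18-fold (Mt-nd2), with a median of 1.83-fold over the members. Over all genes tested the median of this ratio was 1.01, and 632 genes, or 3.94%, reached the 1.58-fold of the lowest member. The members are cut from a shared precursor and are not independent observations of it.

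Non Vulnerable rats 2 and 3 were close to each other in these genes. Their absolute log2 difference was 0.01 to 0.18 over the members, with a median of 0.06, beside a median of 0.14 over all genes tested. With rat 1 included, the SD of log2 CPM inside the Non Vulnerable group was 0.35 to 0.66 over the members (median 0.50), beside a median of 0.17 over all genes tested. In Saline rats it was 0.03 to 0.27 (median 0.20, all genes 0.14), and in Vulnerable rats 0.14 to 0.36 (median 0.27, all genes 0.14).

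No difference of the 9 genes between Vulnerable and Non Vulnerable rats passed the test, in the comparison of rats that had the same cocaine schedule. In this comparison, 0 of 9 members were called at an adjusted p under 0.05 (edgeR's quasi-likelihood test, Benjamini-Hochberg over all genes), where 31.5% of all genes tested were called. All 9 log2 fold changes were below 0, from -0.39 (Mt-cyb) to -0.25 (Mt-co2), with a median of -0.30 beside -0.04 over all genes. Their SEs were 0.20 to 0.34, beside a median of 0.14 over all genes. The smallest adjusted p in edgeR was that of Mt-co1, 0.233, with a log2 fold change of -0.35, and 0 of 9 members had an unadjusted p under 0.05. Groups overlapped for 9 of 9 members, while 46.7% of all genes had groups that did not overlap. Without Non Vulnerable rat 1, 7 of the 9 fold changes were above 0 and the median was 0.07. In that setting 0 of 9 were called, with adjusted p in edgeR of 0.412 or more, where 36% of all genes tested were called. The negative sign shared by all 9 members was lost with that rat. The median also moved to -0.46 without Vulnerable rat 2 or without Non Vulnerable rat 2, to -0.16 without Vulnerable rat 3, and to -0.17 without scaling factors.

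The intervals show what these data could not settle. For Mt-co2 the 95% interval of the log2 fold change of Vulnerable against Non Vulnerable rats ran from -0.70 to 0.21. For Mt-nd2 it ran from -1.02 to 0.52. A fall by 1.5-fold, or log2 -0.58, lay inside the interval of all 9 members, so an absent call does not show that the groups had equal levels.

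Between Non Vulnerable and Saline rats, again no difference passed the test. Of the 9 members, 0 were called, where 14.7% of all genes tested were called with edgeR. All 9 log2 fold changes were above 0, from 0.23 (Mt-nd2) to 0.33 (Mt-co1), with a median of 0.26 beside 0.02 over all genes. The smallest adjusted p in edgeR was 0.309, for Mt-co1. Groups overlapped for 9 of 9 members, while they did not overlap for 35% of all genes. Without Non Vulnerable rat 1 the fold changes ran from -0.28 (Mt-nd2) to 0.08 (Mt-co1), and 7 of 9 were below 0, with a median of -0.11. The median was 0.42 without Non Vulnerable rat 2 or rat 3, 0.15 without Saline rat 3, and 0.14 without scaling factors. The comparison shares its Non Vulnerable rats with the one before, so the mirrored signs are not separate evidence.

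Vulnerable and Saline rats had fold changes near 0. Here 0 of 9 members were called, and 0% of all genes tested were called with edgeR. The log2 fold changes ran from -0.08 (Mt-cyb) to 0.05 (Mt-co2), 8 of them below 0, with a median of -0.03 beside 0.00 over all genes. Adjusted p values in edgeR lay between 0.975 and 0.995, and 0 of 9 members had an unadjusted p under 0.05, against 807 genes of all tested. DESeq2 and limma voom also called 0 of the 9, and over all genes they called 29 and 0. Groups overlapped for 9 of 9 members, and 11.9% of all genes had groups that did not overlap. The 95% intervals reached from -0.79 to 0.74 for Mt-nd2, the widest, and from -0.41 to 0.50 for Mt-co2, the narrowest.

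**Figure D3:**
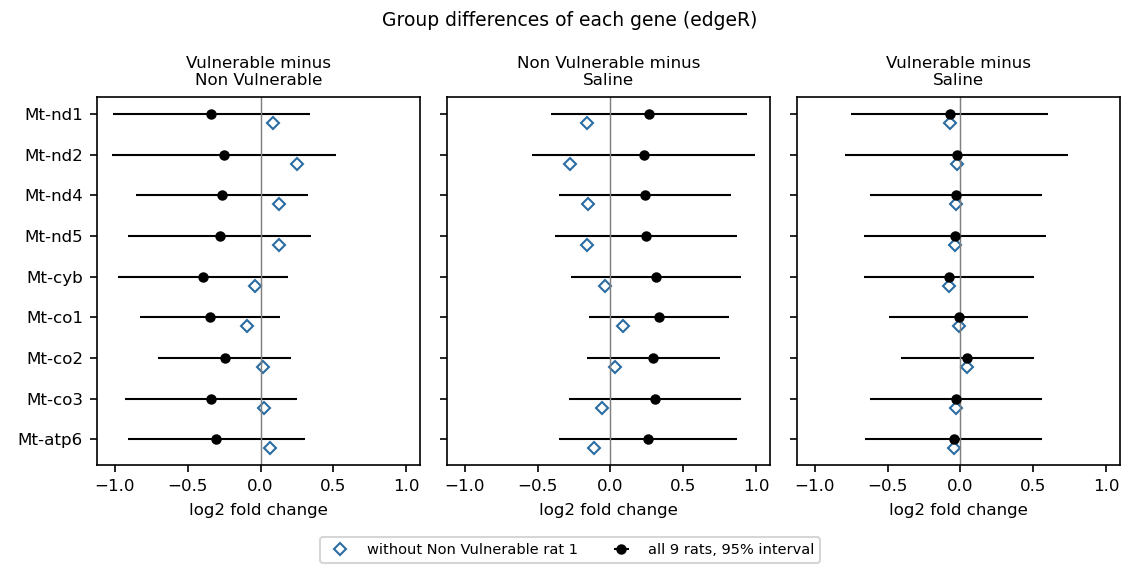
Log2 fold change (x axis) of each of the 9 genes (y axis) in the 3 comparisons, as filled points with 95% intervals from edgeR with all 9 rats, and as open diamonds without Non Vulnerable rat 1. All intervals cross 0, and the diamonds of the comparisons with Non Vulnerable rats lie on the other side of 0 for 7 of 9 genes.

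The proportions of the members among themselves varied by less in some genes than in others. As a share of the members' summed counts, Mt-atp6 varied from 16.6% to 17.8% over the 9 rats, a ratio of 1.07, and Mt-co3 from 9.47% to 10.3%. Mt-nd2 varied most, from 9.43% in Non Vulnerable rat 3 to 12.3% in Vulnerable rat 2, a ratio of 1.30. Mt-co1 had 25.01% to 29.3%. These are shares of counts and do not rank the genes by transcripts, which would need their lengths. Groups overlapped in every pairwise comparison for the shares of 9 of 9 members.

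Summed over its members, complex I took a larger share of the members' counts in the rats where complex IV took a smaller one. Such shares are parts of a fixed total, and in level Non Vulnerable rat 1 was the highest rat for every member of both complexes. Between other rats, levels of Mt-nd2 and Mt-co1 could differ in opposite directions. Non Vulnerable rat 3 had 9857 CPM of Mt-nd2 against 13573 in Saline rat 1, but 30575 CPM of Mt-co1 against 28214. In the same rats, Mt-co2 was also higher in Non Vulnerable rat 3, at 11541 against 10721 CPM. Mt-co3 was lower there, at 10162 against 11572 CPM, so complex IV did not move as a set. Without Non Vulnerable rat 1, Pearson's r of log2 CPM between Mt-nd2 and Mt-co1 was still positive, at 0.49. The 4 complex I members together took 26.1% of the members' counts in Non Vulnerable rat 1, 26.4% in Vulnerable rat 2, 25.6% in Saline rat 1 and 25.5% in Saline rat 2. In the other 5 rats they took 21.6% to 23.9%. The 3 complex IV members took 44.4% to 44.9% in the former 4 rats and 47.8% to 50.02% in the other 5. Not every member followed its complex. Mt-co1 and Mt-co2 took a smaller share in each of the former 4 than in any of the other 5. Mt-co3 did not, with 10.1%, 9.95%, 10.3% and 9.58% in the former 4 and 9.47% to 9.85% in the other 5. In complex I, Mt-nd1 took a larger share in each of the former 4, while Mt-nd2 (narrowly), Mt-nd4 and Mt-nd5 overlapped between these sets of rats. The former 4 rats were also the 4 with the largest summed share of all counts, 11.3% or more, and they come from all 3 groups. The ratio of Mt-nd2 to Mt-co1 ran from 0.322 in Non Vulnerable rat 3 to 0.490 in Vulnerable rat 2. Its highest value over its lowest, 1.52, was the largest of the 7 ratios between members that were computed. That of Mt-nd2 to Mt-co2 was close, at 1.51. This pattern was noticed in the data and was not tested.

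**Figure D4:**
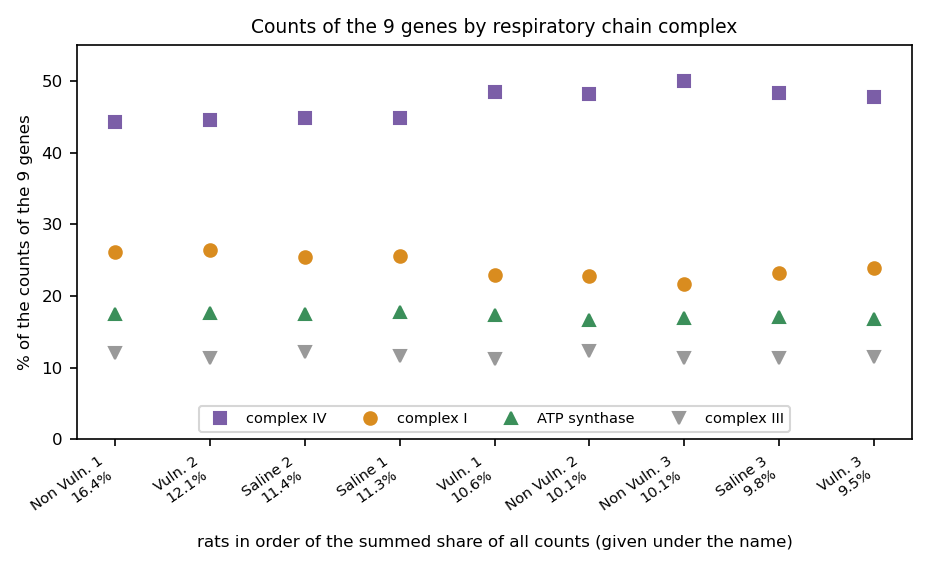
Share of the counts of the 9 genes that belongs to each respiratory chain complex (y axis, percent, from 0), for the 9 rats ordered along the x axis by the summed share of all counts printed under each name. Complex I lies at 25.5% or more in the 4 leftmost rats and at 23.9% or less in the other 5, and complex IV runs the other way. These are sums over members, and Mt-co3 alone did not run the way of complex IV.

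Members resembled each other across rats. Pearson's r of log2 CPM over the 9 rats was 0.84 to 0.99 for the 36 pairs of members, with a median of 0.96, as a description of rats that share Non Vulnerable rat 1 as an extreme. Without that rat r was 0.45 to 0.98, with a median of 0.88. The lowest value without it was that of Mt-nd5 with Mt-co2, and the highest that of Mt-nd4 with Mt-nd5.

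Among the 9988 other genes with a mean of at least 10 CPM, the one most like the summed level of the members was ENSRNOG00000033299. Its r was 0.98 over the 9 rats and 0.91 without Non Vulnerable rat 1, and it had 5113 CPM in that rat against 2345 to 3399 CPM in the others. The next was ENSRNOG00000010390, with r of 0.97 over the 9 rats and 0.83 without that rat, at 17.3 CPM in it against 12.4 to 13.9 CPM in the others. The most opposite pattern belonged to ENSRNOG00000007681, with r of -0.96 over the 9 rats and -0.78 without that rat. It had 33.0 CPM in Non Vulnerable rat 1 against 38.3 to 41.8 CPM in the others. ENSRNOG00000037251 followed, with r of -0.94 and -0.75, at 17.3 CPM against 22.2 to 23.7 CPM. Of the genes compared, 24 had r above 0.9 and 8 had r below -0.9, and the values describe likeness over few rats only.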

How the data were processed

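PolyA-selected RNA was sequenced from strand-specific libraries, per the labels' protocols. The authors deposited raw counts of reads per gene, in whole numbers, with 1 table per library. Tools listed in the submitters' processing notes are HTSeq 0.5.3, STAR and bcl2fastq 2.17.1.14. The genome build, annotation, strand setting and treatment of reads that map to more than 1 place: not given in the sources used here. Nuclear copies of mitochondrial sequence exist, so the members' counts carry that uncertainty. The names of the 9 IDs come with the list, not from the count tables.

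The 4 technical replicates of a rat were summed to 1 sample. Rats are separate animals as far as their numbers in the labels say. With all 9 rats fitted, p-values weigh a group difference against the spread between rats, estimated over all 3 groups. Counts were fitted over all 9 rats with edgeR 4.0.16 in R 4.3.3 (filterByExpr, TMM, robust glmQLFit), a coefficient per group, adjusted by Benjamini-Hochberg over 16029 genes and called under 0.05. SEs came from the quasi-likelihood F statistic. The scripts were tested on simulated counts with known changes. Alternatives used DESeq2 1.42.0, limma 3.58.1, other scalings, no filter, only the compared groups, a block for the rat number, and leaving out each rat. The list of members applies no measured threshold, but members, lists and tests were chosen with earlier results of these data known. All 9 members are named, and further gene IDs are those most and least like their summed level (log2 CPM, prior count 2). Lists of nuclear respiratory chain genes and cell type markers were void, since 0 IDs could be paired with symbols in the RefSeq table (assembly GRCr8). For that reason no sequence of a member is shown.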

Additional observations from a re-analysis of the deposited data

How the results depend on the processing

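No member was called in any comparison under any of the 17 alternatives. The smallest adjusted p of a member was 0.144 (DESeq2, Vulnerable against Non Vulnerable), and the smallest in limma voom was 0.242. With the rat number as a replicate block, 0 members were called. Over all genes tested, 32.2%, 15.3% and 0% were called for Vulnerable against Non Vulnerable, Non Vulnerable against Saline and Vulnerable against Saline. The members' median log2 fold changes were -0.27, 0.23 and -0.03 in the same order. Same-numbered rats deviated together only weakly (r of -0.14 to 0.19 across genes), so the number is not taken as a pairing. Leaving out Non Vulnerable rat 1 changed the sign of 7 of 9 members in both comparisons with that group, and the other 16 alternatives changed none. For Vulnerable against Saline all 9 were below 0 without Vulnerable rat 2 (median -0.21) and all 9 above 0 without Vulnerable rat 3 (median 0.06). Over all genes, calls ran from 2798 to 6084 (5050 as reported), from 251 to 3706 (2351) and from 0 to 29 (0) in the 3 comparisons. The number of genes tested differed between alternatives. As shares of the genes tested, calls ran from 17.3% to 36% (31.5%), from 1.55% to 22.3% (14.7%) and from 0% to 0.126% (0%). Without scaling factors the median over all genes moved to 0.09 for Vulnerable against Non Vulnerable, and the members' median to -0.17. With 1 rat left out, the difference in summed share ran from -2.56 to 0.622 points (Vulnerable minus Non Vulnerable), from -0.754 to 2.43 (Non Vulnerable minus Saline) and from -0.806 to 0.480 (Vulnerable minus Saline). Libraries of a rat differed by at most 0.0783 points in the summed share, so depth was not the limit of that value.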
